A study of Mus musculus with 5 samples.

Results

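The 6 genes Ptgds, Apod, Il33, Grm3, Car2 and Jph4 were listed as markers of MOL5/6, a population of mature oligodendrocytes (OLs). That name did not hold for Apod, which stood lower in the cells so labelled than in the others. It held only weakly for Car2, whose level differed least of the 6 between these cells and the others. The 6 genes were taken by name from a matrix of 11733 genes and followed in 2853 single cells of the mouse corpus callosum, each of which carries 1 of 12 labels given by the study. The labels MOL4-5/6 (350 cells), MOL6a (451 cells) and MOL6b (430 cells), together 1231 cells, are called the MOL5/6 labels below, and MOL2/MFOL, MOL2a, MOL2b and MOL2/4, together 1019 cells, the MOL2 labels. The cells were OL lineage cells from postnatal day 60 mice that carry Emx1::Cre together with Sox10::Cre-LoxP-GFP-STOP-TdTom, of both sexes, on a mixed CBA and C57BL/6 background and hemizygous for Cre. In this line TdTom marks OL lineage cells of dorsal (Emx1) origin, and GFP marks those of ventral origin. Tissue of 2 mice was pooled and sorted into TdTom+ and GFP+ cells, which gave 1 droplet library each, with 1901 and 952 cells. Which cells count as dorsal therefore rests on where Emx1::Cre was active, and no untreated or unlabelled cells were compared.

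In the OL lineage, OL precursor cells (OPCs) become committed precursors (COPs) and newly formed OLs (NFOLs), then myelin-forming OLs (MFOLs) and finally mature OLs (MOLs), which fall into several transcriptional populations. Ptgds encodes the lipocalin-type prostaglandin D2 synthase, an enzyme and secreted carrier of small lipids, and Apod encodes apolipoprotein D, another lipocalin. Il33 encodes a cytokine of the interleukin-1 family that is held in the nucleus and acts as an alarm signal when cells are damaged. Grm3 encodes a metabotropic glutamate receptor, Car2 the cytosolic carbonic anhydrase that interconverts CO2 and bicarbonate, and Jph4 a junctophilin that ties the endoplasmic reticulum to the plasma membrane.

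Ptgds, Grm3 and Car2 were also looked for in tissue by the study with padlock probes, and 1 target in coding sequence is shown for each, the one nearest to the 3′ end of the transcript. Each of the 15 targets designed for the 3 genes, 5 a gene, matched a transcript of its gene in the sense direction. The Ptgds target lies in exon 4 of 7 at chr2:25468105-25468144 on the minus strand (GRCm38), 317 bases from the end of a transcript of 901 bases. The Grm3 target lies in exon 4 of 6 at chr5:9511729-9511768 on the minus strand, and 747 bases of the transcript follow it. The Car2 target spans the junction of exons 6 and 7 at chr3:14898066-14900006 on the plus strand.
Ptgds: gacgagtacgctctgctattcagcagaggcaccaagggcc
Grm3: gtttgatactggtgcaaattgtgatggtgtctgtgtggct
Car2: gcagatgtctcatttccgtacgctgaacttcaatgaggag

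The 250 bases before the start of Ptgds, Il33 and Apod are shown because Ptgds and Il33 had like patterns over the labels and Apod another (see the levels that follow). They were taken from RefSeq (GRCm38.p6), which matched 5 of the 6 genes and not Car2. For Il33 it lists 2 starts, of which the first is shown. The Ptgds sequence is chr2:25469750-25469999 on the minus strand, that of Il33 is chr19:29924863-29925112 on the plus strand, and that of Apod is chr16:31314809-31315058 on the minus strand. Capitals mark the letters ACAAAG, which with AACAAT were searched on both strands as letters that factors of the SOX family bind. ACAAAG was found in 16.5% and AACAAT in 9.42% of 32851 promoter windows of this length, and at least 1 of them in 24.0%. Among the 5 genes with a window, Apod alone held either, and no match says only that these letters are not in the window.
Ptgds: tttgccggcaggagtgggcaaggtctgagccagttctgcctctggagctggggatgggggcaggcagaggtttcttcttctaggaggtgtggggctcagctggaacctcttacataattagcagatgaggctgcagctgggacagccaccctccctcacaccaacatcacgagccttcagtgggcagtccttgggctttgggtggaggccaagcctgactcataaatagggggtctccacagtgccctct
Il33: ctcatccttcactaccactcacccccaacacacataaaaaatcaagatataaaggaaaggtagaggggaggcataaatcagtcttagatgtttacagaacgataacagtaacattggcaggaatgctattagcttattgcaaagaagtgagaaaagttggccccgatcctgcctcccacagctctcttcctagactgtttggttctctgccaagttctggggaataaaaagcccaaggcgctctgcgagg
Apod: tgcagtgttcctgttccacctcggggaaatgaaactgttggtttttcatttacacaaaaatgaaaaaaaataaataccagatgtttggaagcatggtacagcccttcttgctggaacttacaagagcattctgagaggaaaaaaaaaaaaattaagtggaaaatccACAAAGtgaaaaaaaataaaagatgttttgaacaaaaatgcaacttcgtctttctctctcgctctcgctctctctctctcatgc

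The TdTom+ library held 7129294 UMIs (unique molecular identifiers, each standing for 1 captured RNA molecule) and the GFP+ library 3584940, with medians of 3340 and 3307 UMIs per cell, and 1 cell barcode occurred in both. Levels are given in CPM, the UMIs of a gene per 1000000 UMIs summed over the cells of a group. For shares of cells, 2400 UMIs were drawn from every cell that had as many (2629 cells), since the median was 2976 UMIs in the MOL5/6 labels and 3793 in the others. With 1 library per origin there is no replicate and no test, and the 95% intervals cover counting error only, not the spread between mice. They are also narrower than the spread over cells: for Ptgds in the MOL5/6 labels, the variance of the UMIs over cells was 18.3 times their mean. The study made its labels by clustering that could use these genes, so levels by label are descriptions. The labels were in order against marker lists of other stages: summed OPC markers were highest in OPC (10750 CPM), COP and NFOL markers in COP/NFOL (9104 CPM), MFOL markers in MFOL1 (58762 CPM), MOL1 markers in MOL1 (4601 CPM) and MOL2 markers in MOL2/4 (3476 CPM).

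Ptgds was highest in MOL6a, at 18565 CPM in TdTom+ and 19084 CPM in GFP+ cells, and next in MOL6b, at 15338 and 16452 CPM. Other labels were rich in it too. MFOL1 held 11203 and 13310 CPM and MOL1 9356 and 13352 CPM, against 10003 and 10280 CPM in MOL4-5/6. MFOL1 thus stood above MOL4-5/6 in both libraries, whereas MOL1 stood below it in TdTom+ and above it in GFP+. The MOL2 labels were lower: MOL2/4 held 4628 and 2825 CPM, MOL2/MFOL 2139 and 1697 CPM, MOL2b 1602 and 1306 CPM and MOL2a 664 and 868 CPM. In OPCs Ptgds stood at 406 and 408 CPM, and with both libraries summed the intervals of OPC and COP/NFOL overlapped, whereas those of all other neighbours in the order of the 12 labels did not. Over the 10 labels other than OPC and COP/NFOL, the highest level was 25.9 times the lowest.

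Apod, the other lipocalin, took a different order. It was highest in MOL2/4, at 6972 CPM in TdTom+ and 9927 CPM in GFP+ cells, and both summed (8581 CPM) were far above the next label, MOL2/MFOL, at 2719 CPM. MOL1, MOL2a and MOL2b followed at 2159, 2147 and 2010 CPM with overlapping intervals. The MOL5/6 labels were lower than all of these, at 1357 CPM in MOL6a, 1190 CPM in MOL4-5/6 and 1127 CPM in MOL6b. MFOL1, which was rich in Ptgds, held 493 CPM of Apod.

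Il33 followed Ptgds. Its 3 highest labels were MOL6a at 731 CPM (TdTom+) and 699 CPM (GFP+), MOL6b at 670 and 730 CPM and MOL4-5/6 at 606 and 567 CPM. MFOL1 came next at 334 and 427 CPM, and MOL2a was lowest among the 10 labels past COP/NFOL, at 33.1 and 64.4 CPM. The ratio of highest to lowest was 17.0 with both libraries summed, 22.1 in TdTom+ and 11.3 in GFP+. Jph4 had the same 3 MOL5/6 labels and MFOL1 on top, at 441 CPM in MOL6b, 398 CPM in MOL4-5/6, 358 CPM in MFOL1 and 343 CPM in MOL6a, and each neighbour's interval overlapped. With both libraries summed the intervals of MOL6a and MOL1, at 226 CPM, did not overlap, but in GFP+ (289 and 193 CPM) they did. MOL2a was lowest at 131 CPM.

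Grm3 gave few UMIs in any label. With both libraries summed it was highest in MOL6b, at 130 CPM, and lowest among the 10 labels in MOL2/MFOL, at 52.5 CPM, a ratio of 2.47. The ends differed by library: the highest label was MOL6b in TdTom+ (134 CPM) and MOL4-5/6 in GFP+ (124 CPM), and the lowest was MOL2a in TdTom+ (44.6 CPM) and MOL2/MFOL in GFP+ (43.2 CPM). From MOL6b down to MOL2/MFOL every interval overlapped that of its neighbour, so neighbouring labels could not be ordered at this depth, although labels farther apart differed beyond counting error. Car2 was found in every label past COP/NFOL and varied least of the 6 over them. Its level ran from 2543 CPM in MFOL1 to 5430 CPM in MOL6a, a ratio of 2.14. MOL2/MFOL and MOL1, at 4803 and 4754 CPM, stood above MOL4-5/6 and MOL6b, at 4475 and 4227 CPM, but the intervals of MOL1 and MOL4-5/6 overlapped.

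**Figure D1:**
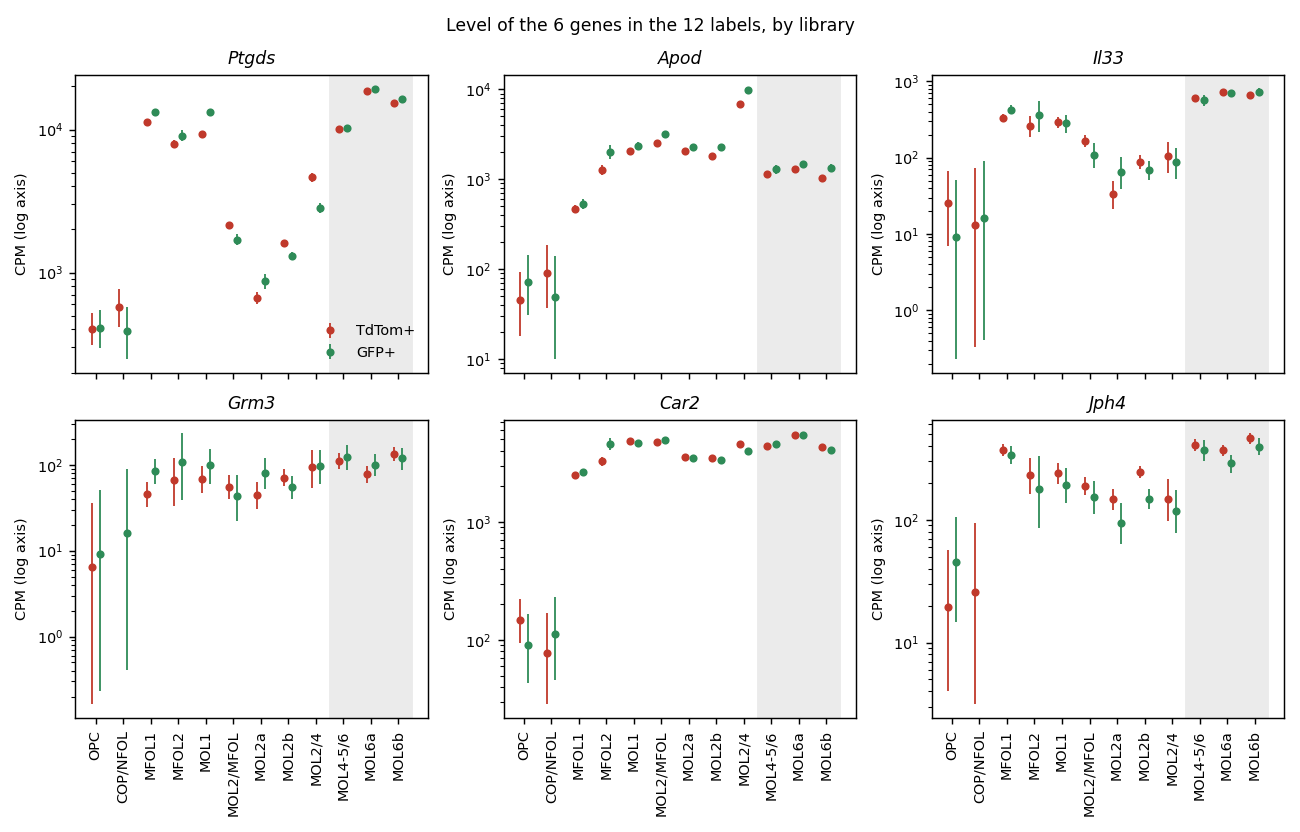
Level of each gene in CPM (log axis) in the 12 labels, with 1 point for the TdTom+ (red) and 1 for the GFP+ library (green), 95% Poisson intervals as bars, and the MOL5/6 labels shaded; a label with 0 UMIs has no point. Ptgds dips from 11929 CPM in MFOL1 to 725 CPM in MOL2a and is 18732 CPM in MOL6a, whereas Apod is highest in MOL2/4. From MFOL1 on Car2 varies least of the 6, from 2543 CPM in MFOL1 to 5430 CPM in MOL6a.

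The MOL5/6 labels were then set against all other cells, to ask how far each gene marks them. Ptgds stood at 15297 CPM against 4536 CPM, a log2 ratio of 1.75 (1.73 to 1.77), and Il33 at 675 against 162 CPM, a log2 ratio of 2.06 (1.95 to 2.16). Jph4 stood at 391 against 207 CPM (log2 ratio 0.91, 0.81 to 1.02) and Grm3 at 108 against 60.7 CPM (0.82, 0.63 to 1.02). Car2, at 4759 against 3477 CPM, had a log2 ratio of 0.45 (0.42 to 0.48). Apod went the other way, at 1233 against 2125 CPM, a log2 ratio of -0.78 (-0.83 to -0.74). Thus 4 of the 6 genes had a log2 ratio of at least 0.5, against 2.45% of 2943 genes (those whose CPM averaged 50 or more over the groups compared), and 1 of the 6 had one of -0.5 or below, against 4.93%. The median was 0.87 over the 6 genes and 0.01 over all. All 6 signs were the same in each library, with Apod at -0.67 in TdTom+ and -0.91 in GFP+. When OPC, COP/NFOL, MFOL1 and MFOL2 were left out of the other cells, the log2 ratio was 2.43 for Ptgds, 2.53 for Il33, 0.26 for Car2 and -1.15 for Apod, with 4 of the 6 at 0.5 or above against 4.27% of genes, and 1 at -0.5 or below against 6.51%. Against the MOL2 labels alone Ptgds reached 3.22 (15297 against 1638 CPM), Il33 2.90, Jph4 1.14, Grm3 0.78, Car2 0.30 and Apod -1.19, again 4 at 0.5 or above, against 4.78% of genes, and 1 at -0.5 or below, against 6.74%.

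Per cell, Ptgds and Car2 were found in nearly all cells of the MOL5/6 labels. After thinning, 99.7% of the 1085 cells had a Ptgds UMI (interval 99.2% to 99.9%), with a median of 32 UMIs and a range of 0 to 178, and 100% had a Car2 UMI, with a median of 11. Apod was found in 90.2% (88.3% to 91.9%), Il33 in 73.5% (70.8% to 76.2%), Jph4 in 58.0% (55.0% to 60.9%) and Grm3 in 21.9% (19.5% to 24.5%). The medians of these 4 genes were 3, 1, 1 and 0 UMIs, so for Grm3 most of these cells give no reading at this depth. OPCs served as the background, at a median of 2895 UMIs per cell. Of 71 thinned OPCs, 57.7% had a Ptgds UMI (45.4% to 69.4%), 25.4% a Car2 UMI, 15.5% an Apod UMI, 7.04% a Jph4 UMI and 2.82% an Il33 UMI. Grm3 was found in 0 of the 71, which, with 3 counts taken as the limit, allows a share of cells with a UMI of up to 4.23%.

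The shares of Ptgds in MOL2a (54.1%), MOL2b (54.9%) and MOL2/4 (45.3%) were no higher than in OPCs, so a single UMI there is read as background. Cells with many UMIs were another matter: 44 of 426 MOL2b cells had 10 to 29 Ptgds UMIs and 10 had 30 or more, in MOL2/4 2 and 10 of 106 did, and 0 of 71 OPCs had 10 or more. Those of Il33 in MOL2a (6.31%, 3.49% to 10.4%) and MOL2/4 (9.43%, 4.62% to 16.7%) overlapped that of OPCs (0.343% to 9.81%), whereas the 73.5% of the MOL5/6 labels and the 55.2% of MFOL1 lay far above it. The level of the 6 genes in OPCs was 3.06% to 10.8% of that in all other cells, with a median of 5.01%, and for 11 myelin genes, which OPCs should lack, it was 2.27% to 12.4%, with a median of 3.56%.

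**Figure D2:**
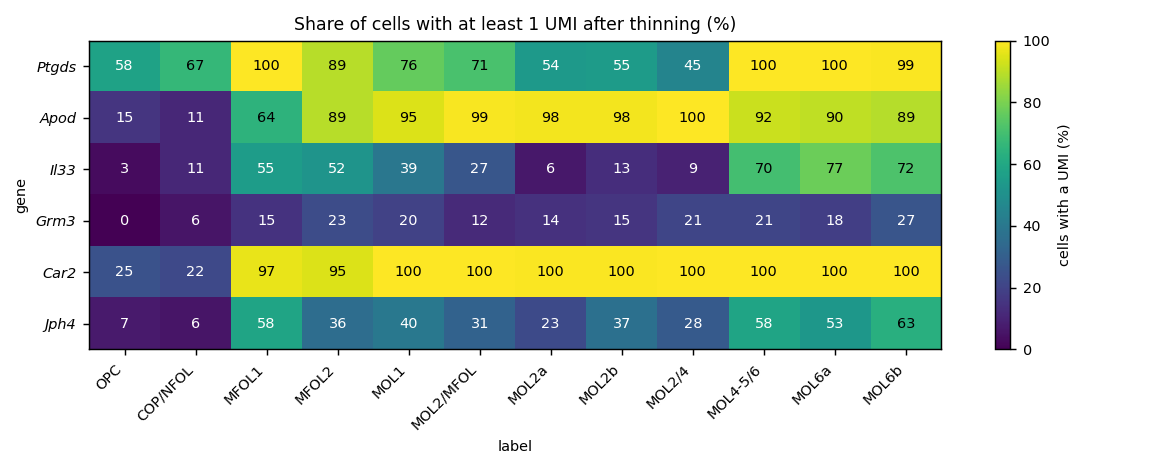
Share of thinned cells (2400 UMIs each) with at least 1 UMI of each gene, in percent, for the 12 labels with both libraries pooled. Car2 and Apod are found in most cells of every label from MFOL2 on, Il33 in 70.2% to 77.4% of the cells in the 3 labels on the right, and Ptgds in 57.7% of OPCs.

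Within the MOL5/6 labels, the genes did not share a gradient. From MOL4-5/6 to MOL6a Ptgds went from 10003 to 18565 CPM in TdTom+ and from 10280 to 19084 CPM in GFP+, a log2 ratio of 0.89 in each library, and 0.89 (0.86 to 0.93) with both. It was the only one of the 6 at 0.5 or above, against 6.11% of all genes compared, and 0 of the 6 stood at -0.5 or below, against 1.55%. Car2 had a log2 ratio of 0.28 (0.23 to 0.33), Il33 0.27 (0.13 to 0.42) and Apod 0.19 (0.09 to 0.29). Grm3 (-0.43, -0.79 to -0.06) and Jph4 (-0.22, -0.40 to -0.03) had the opposite sign in both libraries, although for Grm3 the GFP+ interval (-0.95 to 0.36) and for Jph4 both libraries' intervals included 0.

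From MOL6a to MOL6b the signs were turned for Ptgds, at -0.26 (-0.28 to -0.23), Apod, at -0.27 (-0.37 to -0.17, but -0.15 with an interval of -0.31 to 0.01 in GFP+), and Car2, at -0.36 (-0.41 to -0.31). Grm3 stood higher in MOL6b, at 0.60 (0.27 to 0.95), the only one of the 6 at 0.5 or above, against 3.29% of all genes, and so did Jph4, at 0.36 (0.19 to 0.54). None of the 6 stood at -0.5 or below, against 12.7%. In the TdTom+ library Grm3 had a log2 ratio of 0.79 (0.37 to 1.22), and in GFP+ 0.24 (-0.36 to 0.84). Il33 differed by less than its counting error, at -0.06 (-0.19 to 0.06). MOL6a thus had the most Ptgds, Apod and Car2 of the 3 labels, and MOL6b, with both libraries summed, the most Grm3 and Jph4, with the Grm3 and Jph4 intervals of MOL6b and MOL4-5/6 overlapping. From MOL4-5/6 to MOL6b, Ptgds at 0.64 (0.61 to 0.67) was again the one gene of the 6 at 0.5 or above, against 1.66% of all genes, and 0 stood at -0.5 or below, against 3.94%.

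How many of the 6 genes each cell showed was counted next. In the MOL5/6 labels, 8 of the 1085 thinned cells showed 2 of the 6 genes, 125 showed 3, 430 showed 4, 432 showed 5 and 90 showed all 6. At least 4 were thus seen in 87.7% (85.6% to 89.6%), with 87.3% in TdTom+ and 88.7% in GFP+. The 3 labels hardly differed, at 85.6% in MOL4-5/6, 87.7% in MOL6a and 89.5% in MOL6b, with overlapping intervals. MFOL1 followed with 64.9% (58.7% to 70.7%), MFOL2 with 60.7% and MOL1 with 59.2% (51.1% to 67.0%). MOL2/MFOL had 43.2%, MOL2b 36.9%, MOL2/4 28.3% and MOL2a 23.9%. Of the 71 OPCs, 18 showed none of the 6 and 0 showed at least 4. With 3 counts taken as the limit, that 0 allows a share of up to 4.23%. Since Apod and Car2 were found in nearly all mature cells, a cell of the MOL2 labels reached 2 without Ptgds, Il33, Grm3 or Jph4.

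**Figure D3:**
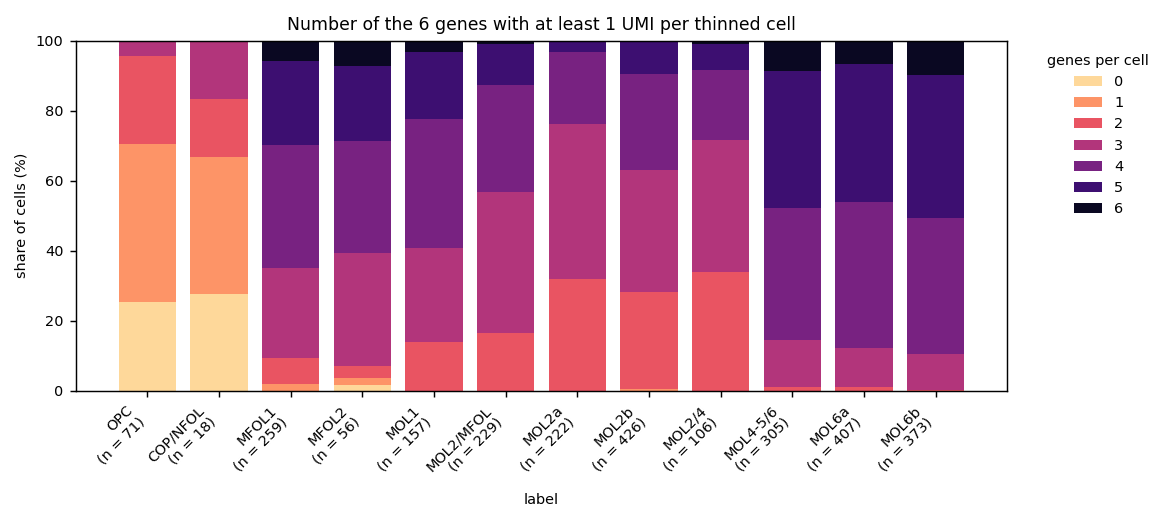
Share of thinned cells (%) in each label that showed 0 to 6 of the genes with at least 1 UMI, from light (0) to dark (6), with the number of cells under each label. Cells with 4 or more make up 87.7% of the MOL6a cells and 23.9% of the MOL2a cells.

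Whether the genes went together from cell to cell inside the MOL5/6 labels was asked with the 15 pairs. The number of cells with both genes was divided by the number expected if the genes were found independently of each other within each label and library. Over the 15 pairs the median was 1.00, from 0.948 (Grm3-Jph4, 132 cells against 139 expected) to 1.02 (Il33-Jph4, 472 against 461), and no interval excluded 1. For pairs with Car2, which was found in every cell, the ratio is 1 by construction, and it is close to 1 for those with Ptgds. Spearman's rho over the UMIs of the 1085 cells, given as a description across cells of 2 libraries, lay between -0.10 (Ptgds-Apod) and 0.13 (Ptgds-Il33). These intervals treat the joint number as free although each gene's own number of cells is given, so they are too wide to show a small departure. The ratios therefore do not decide whether the genes were found independently inside these labels. Il33 was found more often in cells with more Ptgds UMIs, as given below.

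In MFOL1 and in MOL2/4, too, none of the 15 intervals excluded 1, whereas some did in MOL1 and the MOL2 labels. As above, such intervals are too wide to show a small departure, so they do not decide the question for MFOL1 or MOL2/4. In MFOL1 (259 cells), with both libraries, the ratios ran from 1 to 1.33, and rho from 0.007 to 0.36 with a median of 0.15. In each library alone the lowest rho of MFOL1 was negative, at -0.015 in TdTom+ and -0.051 in GFP+. In MOL1 (157 cells) rho was 0.53 for Ptgds-Il33 and -0.53 for Ptgds-Apod, with 60 cells holding both Ptgds and Il33 against 47.4 expected (a ratio of 1.26, with an interval just above 1 that included 1 in each library alone). In the MOL2 labels (983 cells) 118 cells held both Ptgds and Il33 against 86.5 expected (ratio 1.36, 1.14 to 1.61), and the interval lay above 1 in each library too. The ratios of Il33-Grm3 (30 cells against 20.1 expected) and Il33-Jph4 (60 against 45.7) had intervals just above 1 with both libraries, but included 1 in each library alone.

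To follow the gradient of Ptgds across cells rather than labels, the 2629 thinned cells were grouped by their Ptgds UMIs, with bounds set after the values had been seen. Ptgds was 0 in 500 cells, 1 to 2 in 385, 3 to 9 in 284, 10 to 29 in 645 and 30 or more in 815. The share of cells with Il33 over these 5 groups was 5.4%, 8.57%, 37.7%, 64.0% and 73.1%. Jph4 went from 25.0% to 57.7%, Grm3 from 14.0% to 21.0%, and the mean of Apod from 7.42 to 2.73 UMIs per cell. The MOL2 markers ran the other way: Klk6, a secreted serine protease, was found in 42.4% of the cells without Ptgds and 1.84% of those with 30 or more, S100b, a calcium-binding protein, in 86.2% and 11.7%, and Hopx, a homeodomain protein, in 37.2% and 0.982%. The other MOL2 markers moved less, with Anxa5 at 23.2% and 4.79% and Spock3 at 55.6% and 22.8%. S100b is not particular to MOL2, since it stood at 2155 CPM in COP/NFOL and 919 CPM in OPCs. Mog, a myelin protein, stayed between 88.3% and 95.5%. The direction was the same in both libraries for Il33, which went from 7.02% to 73.7% in TdTom+ and from 2.99% to 72.1% in GFP+, and for Klk6, which went from 31.4% to 1.69% and from 58.7% to 2.12%. The share of Klk6 in cells without Ptgds differed between the libraries beyond counting error, with intervals of 26.2% to 37.0% and 51.6% to 65.6%. MOL2/4, the label highest in Klk6 (1541 CPM), made up 60 of 1901 TdTom+ and 63 of 952 GFP+ cells. Its part in this difference was not tested. The groups also differ in labels: 83.6% of the cells without Ptgds were from the MOL2 labels, and 73.5% of those with 30 or more from the MOL5/6 labels.

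Steps were also seen inside labels. In MOL1, Ptgds ran from cells without it (37 of 157) to cells with 30 or more UMIs (61), and 10 cells had 3 to 9. Il33 was found in 5.41% of the former and 72.1% of the latter, Klk6 in 59.5% and 3.28%, and S100b in 83.8% and 14.8%. Hopx was found in 40.5% and 0 of 61, which, with 3 counts taken as the limit, allows a share of up to 4.92%. In the MOL2 labels 26 of 983 cells had 30 or more, and Il33 was found in 65.4% of them against 5.26% of the 418 cells without Ptgds, with Klk6 in 3.85% against 45.2%. In the MOL5/6 labels 3 cells had no Ptgds and 9 had 1 or 2. Among the rest Il33 was found in 59.8% of the cells with 3 to 9 UMIs, 73.9% with 10 to 29 and 75.8% with 30 or more, and Jph4 in 63.2%, 55.8% and 58.6%. Grm3 was found there in 27.6%, 22.7% and 20.7%, with overlapping intervals.

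**Figure D4:**
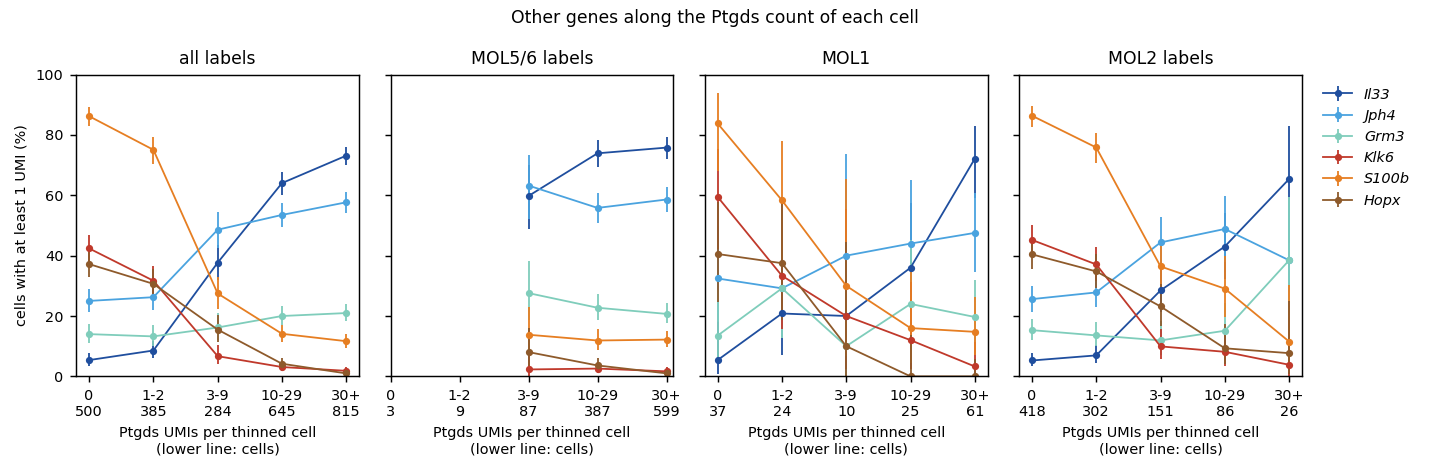
Share of thinned cells with at least 1 UMI (%) of 6 other genes against the Ptgds UMIs of the cell, in all labels, the MOL5/6 labels, MOL1 and the MOL2 labels, with 95% Clopper-Pearson intervals and the number of cells under each group; groups of fewer than 10 cells are not drawn. Il33 goes from 5.4% to 73.1% and S100b from 86.2% to 11.7% over all labels, and MOL1 and the MOL2 labels show the same crossing, whereas Il33 in the MOL5/6 labels starts at 59.8%.

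The Ptgds level of MOL2/4, 3646 CPM, came from few cells. After thinning, 58 of its 106 cells had no Ptgds UMI and 10 had 30 or more. The 18 cells above 5000 CPM, a bound set after the values had been seen, held 90.4% of the Ptgds UMIs of the label's 123 cells, 11 of them in TdTom+ and 7 in GFP+. These 18 cells held 614 CPM of Il33, 112 CPM of Klk6 and 4742 CPM of Apod, and the other 105 held 14.4, 1763 and 9176 CPM, with Ptgds at 406 CPM, the level seen in OPCs. The cells rich in Ptgds and the rest of the label thus differed in Il33 and in Klk6, in opposite directions. The tenth of cells with the most Ptgds held 78.5% of the Ptgds UMIs in MOL2/4, 64.8% in MOL2b, 58.2% in MOL2a, 53.4% in MOL2/MFOL and 26.9% in MOL6a.

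Clusters made anew without the 6 genes gave levels that the genes themselves did not shape. Among 11 such clusters, 10 were led by other labels than OPC and COP/NFOL, and over these 10 Ptgds spanned 96.1-fold, Il33 38.7-fold, Apod 20.1-fold, Jph4 5.55-fold, Grm3 3.65-fold and Car2 2.28-fold. Apod was highest, at 9571 CPM, in a cluster of 100 cells of which 97% carried the label MOL2/4, and Ptgds stood there at 405 CPM. Ptgds was highest, at 32980.5 CPM, in a cluster of 54 cells of which 61.1% carried the label MOL6a, and Apod stood there at 3099 CPM, above the 1100 to 1222 CPM of the other 3 clusters with most of their cells from the MOL5/6 labels.

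The TdTom+ and GFP+ libraries were compared to ask whether cells of dorsal and ventral origin differ in these genes. Over all cells Ptgds stood at 8408 CPM in TdTom+ and 8419 CPM in GFP+, a log2 ratio of 0.00 (-0.02 to 0.02). Apod stood at 1596 and 2217 CPM (-0.47, -0.52 to -0.43) and Jph4 at 296 and 227 CPM (0.38, 0.26 to 0.50). Il33 stood at 356 and 329 CPM (0.11, 0.01 to 0.21), Car2 at 3992 and 3834 CPM (0.06, 0.03 to 0.09) and Grm3 at 75.3 and 82.6 CPM (-0.13, -0.34 to 0.08). None of the 6 reached a log2 ratio of 0.5 either way, as did 0.135% of genes upward and 0.304% downward. The share of MOL2/4, the label richest in Apod, differed between the libraries, with 60 of 1901 TdTom+ and 63 of 952 GFP+ cells. With the label shares set equal in both libraries, the log2 ratio of Apod was -0.32, of Jph4 0.30, of Ptgds -0.093 and of Grm3 -0.16, and those of Il33 (-0.013) and Car2 (0.0047) came to about 0.

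Within labels the direction was steady for Apod and Jph4, which was noticed after the values had been seen. Apod was lower in TdTom+ in 11 of 12 labels, as were 0.338% of genes, and the interval excluded 0 in 8. In MOL6b it stood at 1025 against 1346 CPM (-0.39, -0.55 to -0.24), in MOL2/4 at 6972 against 9927 CPM (-0.51, -0.61 to -0.41), and in MFOL2, with 66 cells, at 1275 against 2023 CPM (-0.67). Jph4 was higher in TdTom+ in 11 of 12 labels, as were 1.05% of genes, and the interval excluded 0 in 3, namely MOL2a, MOL2b (247 against 149 CPM, 0.72, 0.40 to 1.05) and MOL6a (368 against 289 CPM, 0.35, 0.07 to 0.64). Ptgds had no steady sign. It was lower in TdTom+ in 8 labels, such as MOL1 (9356 against 13352 CPM), and higher in 4, such as MOL2b (1602 against 1306 CPM), with intervals that excluded 0 in 9. In MOL2/4 (4628 against 2825 CPM) most Ptgds UMIs were in the 18 cells described above, 11 of 60 TdTom+ and 7 of 63 GFP+ cells. Its level inside the MOL5/6 labels was 14973 against 16039 CPM (-0.10, -0.12 to -0.07). Origin and library cannot be told apart, since each origin was captured once.

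**Figure D5:**
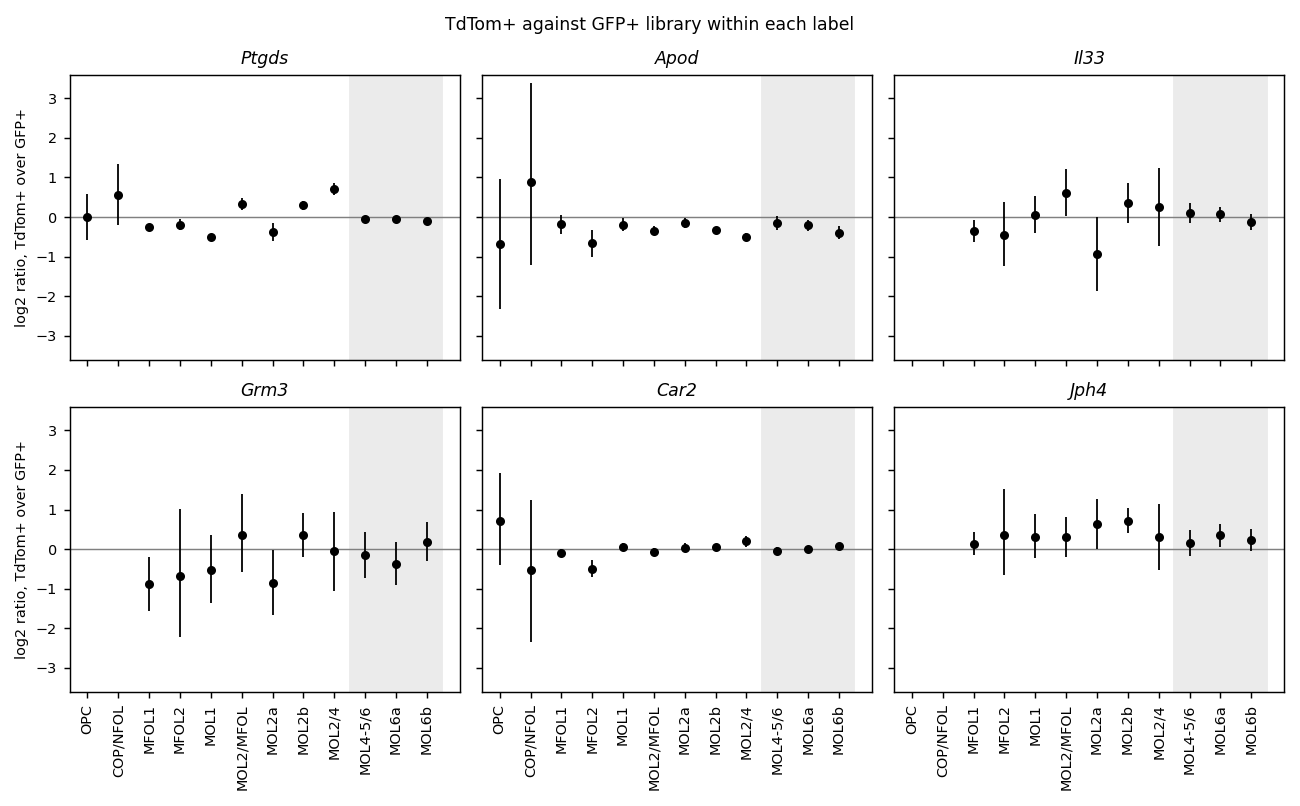
Log2 ratio of the TdTom+ over the GFP+ library for each gene within the 12 labels, with 95% counting intervals; labels with fewer than 10 UMIs of the gene in both libraries together are not drawn and the MOL5/6 labels are shaded. Points for Apod lie below 0 in 11 of 12 labels and for Jph4 above 0 in every label drawn, whereas Ptgds lies on both sides.

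Genes with the pattern most like each member over the 12 labels were found with Pearson's r of log2(CPM + 1) among the 5750 genes that reached 50 CPM in some label. All 12 points come from the same 2 libraries, and the low values of OPC and COP/NFOL enter each r. For Ptgds they were Il33 (r = 0.970, with 0.956 in TdTom+ and 0.966 in GFP+), the amino acid transporter gene Slc38a2 (0.949) and the kinesin gene Kif13a (0.946, but 0.706 in GFP+). For Il33 they were Ptgds, Slc38a2 (0.949) and Sqstm1 (0.947), which encodes an autophagy receptor. For Apod they were Trf, the gene of the iron carrier transferrin (0.988), Spock3 (0.982) and the integrin gene Itgb4 (0.979), each highest in MOL2/4. For Jph4 they were Erbb2ip (0.991), Desi1 (0.987) and Phlpp1 (0.980). For Grm3 they were Atp1b3, a subunit of the sodium pump (0.992), Mast4 (0.977) and Ankub1 (0.976), each highest in MOL6b, and for Car2 they were Insc (0.996), Evi2a (0.994) and Trim59 (0.993). Among the 6 themselves, over the 10 labels without OPC and COP/NFOL, r was 0.948 for Ptgds-Il33, 0.908 for Il33-Jph4 and 0.805 for Ptgds-Jph4, and -0.490, -0.587 and -0.779 for Apod with Ptgds, Il33 and Jph4.

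Related genes were sparse. Of 18 genes of prostaglandin synthesis and reception 9 were in the matrix, and 6 reached 20 CPM in some label. Ptges3, a chaperone partner also named as a prostaglandin E synthase, spanned 127 CPM in MOL2/4 to 287 CPM in MOL4-5/6, Ptges2 was 52.4 CPM at most and Cbr1 56.5 CPM, and Akr1b3, the aldose reductase gene, 23.3 CPM. Pla2g4a, which encodes a phospholipase that frees arachidonic acid, stood at 3.63 CPM in the MOL5/6 labels and 27.7 CPM in the other cells, and Ptger1, a receptor of prostaglandin E2, was highest in COP/NFOL, at 72.1 CPM, and had 12 UMIs over all cells. Of 5 genes around IL-33 3 were measured: Il1rap, the co-receptor chain, spanned 79.1 to 197 CPM, Il18 reached 108 CPM and Il1b had 0 UMIs, which allows up to 3. Of 6 other lipocalin genes 1 was measured, Rbp4, at most 26.4 CPM in OPCs. Of 7 other metabotropic receptor genes 3 were measured, of which Grm5 stood at 222 CPM in OPCs and 0.259 CPM in the MOL5/6 labels, and Grm7 reached 40.9 CPM in MOL6b. Of 13 other carbonic anhydrase genes 6 were measured: Car14 reached 299 CPM in MOL2/4, and Car8, Car10 and Car11 were highest in OPCs, at 128, 45.2 and 128 CPM. Of 3 other junctophilin genes 2 were measured, Jph1, at most 121 CPM in MOL2b, and Jph3, at most 45.2 CPM in OPCs. Of the genes in these lists that passed the filter of 50 CPM (1, 2, 0, 0, 1 and 1), 0 passed a log2 ratio of 0.5 either way between the MOL5/6 labels and the other cells, in which 2.45% and 4.93% of genes did. Below that filter genes went both ways. Grm7 stood at 30.8 against 13.3 CPM (log2 ratio 1.16, 0.77 to 1.54), whereas Pla2g4a, given above, and Grm5 (0.259 against 9.63 CPM) were lower in the MOL5/6 labels.

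Of 11 myelin genes 1 (Opalin, 1370 against 634 CPM, a log2 ratio of 1.11) was higher in the MOL5/6 labels by at least 0.5 and 1 (Trf) lower, and all 5 MOL2 markers were lower there, where 2.45% of all genes were higher and 4.93% lower. Ptgds and Apod are also made by other cells of the brain, so their markers were read beside them. Of 7 markers of vascular and leptomeningeal cells 1 was in the matrix, Igfbp2, with 1 UMI. Of 6 choroid plexus markers 2 were, Prlr, with 20 UMIs, and Enpp2, which OLs also express, at 279 to 1262 CPM. The 7 astrocyte markers summed to 64.9 to 930 CPM by label and were highest in OPCs, where Slc1a2 and Slc1a3, which OPCs share, made up most of it, and Aqp4 and Gja1 had 17 and 23 UMIs in all. In TdTom+ and GFP+, 5 of 5 endothelial markers summed to 1.40 and 3.35 CPM, with 2 of them at 0 UMIs, and 4 of 5 neuronal markers to 23.3 and 37.7 CPM. The 1 of 4 ependymal markers in the matrix stood at 43.5 and 38.5 CPM, and 6 of 8 microglial markers summed to 12.8 and 0.558 CPM, highest in MFOL2 (381 CPM). Their part in the levels of the 6 genes was not tested beyond leaving out the 44 cells with 3 or more astrocyte markers, without which 4 of the 6 genes still had a log2 ratio of at least 0.5 in the MOL5/6 labels.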

How the data were processed

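Corpus callosum OL lineage cells were sorted for TdTom or GFP and captured by 10x Genomics 3′ v2 chemistry. Per the paper's methods the authors aligned reads with STAR (version not given in the sources used here), limited cells to 200 to 3000 genes and less than 5% mitochondrial UMIs, integrated the data and labelled cells in Seurat. The submitters' processing notes name Cell Ranger 2.1.1 and mm10. The matrix the authors deposited holds a signal, the UMIs of a gene over the total of its cell. Dividing by the smallest value of each cell gave whole UMI counts (100% of values within 0.01), which were used throughout. The deposited table of cells also gives UMI counts and genes per cell, and 35 of its columns were not used. The 3 spinal cord samples were not analysed here.

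UMIs were summed per label and library, CPM ratios used a pseudocount of 1 CPM, and intervals are exact (Poisson, Clopper-Pearson, or binomial given the sum). Cells were thinned to 2400 UMIs, the tenth percentile rounded down. Background shares use genes whose CPM averaged 50 or more over the groups compared. Clusters without the 6 genes used scanpy 1.11.5 (3000 variable genes, 30 components, resolution 0.8). TMM factors came from edgeR 4.0.16. Sequences were placed with GENCODE (GRCm38). No doublets were called and no cells were removed from those deposited. The genes named are the 6 members, the 3 genes most like each, and genes of related lists with at least 20 CPM in a label. Members and lists were chosen with earlier results of these data known. Scripts were tested on simulated data. Alternatives to the cells kept, thinning, pseudocount and scaling are given in the closing section.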

Additional observations from a re-analysis of the deposited data

How the results depend on the processing

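With 1 library per origin and pooled mice, the intervals cannot show the spread between animals, and a value within a label is not independent of how the label was made. In 9 alternatives 4 of the 6 genes stayed at a log2 ratio of 0.5 or above in the MOL5/6 labels. They include cells within the recounted limits (2820 of 2853), each library alone and clusters made without the 6 genes. The clusters taken were those with over 50% of their cells from the MOL5/6 labels. Of their 1296 cells 1030 carried these labels, so this alternative is not free of the labels. The alternative that left out the 18 MOL2/4 cells rich in Ptgds was chosen after seeing the data. The log2 ratio spanned 1.63 to 2.43 for Ptgds, 1.87 to 2.53 for Il33, 0.64 to 0.89 for Grm3, 0.79 to 1.09 for Jph4 and -1.15 to -0.67 for Apod, and no called ratio changed sign. That of Ptgds from MOL4-5/6 to MOL6a spanned 0.88 to 0.89 over 6 alternatives. The shares depended on depth. The median share of MOL5/6 cells over the 6 genes was 81.9%, 87.2% without thinning, 56.3% when thinned to 1000 UMIs and 58.2% with at least 2 UMIs, and the share with at least 4 genes was 87.7%, 91.7%, 50.7% and 46.3%. The ratio of observed to expected pairs, from 0.948 to 1.02, spanned 0.808 to 1.08 with at least 2 UMIs, and its median is held near 1 by pairs with genes found in nearly all cells. The median log2 ratio of TdTom+ over GFP+ was 0.028, -0.053 with equal label shares and -0.046 in the MOL5/6 labels alone. Of the 18 places given to genes most like a member, 15 were kept at a minimum of 200 CPM and 6 with Spearman's rho. No paired analysis was possible because each origin has 1 library.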
